A study of Homo sapiens with 4 samples.

Results

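The 3 gene families that supply much of the human splicing machinery, the SR proteins (SRSF), the heterogeneous nuclear ribonucleoproteins (HNRNP) and the core proteins of the small nuclear ribonucleoproteins (SNRP), were followed in ovarian cancer cells with and without a knockout in an endogenous retrovirus. The members were chosen by symbol alone, as every symbol starting with SRSF, HNRNP or SNRP. The 186 pseudogene symbols and the hyphenated readthrough symbol HNRNPUL2-BSCL2 were set aside. This left 49 genes of the 52402 symbols in the count tables, namely 12 SRSF, 25 HNRNP and 12 SNRP genes. SKOV3 and OVCAR3 are established human ovarian cancer cell lines. The groups were SKOV3 cells carrying a CRISPR-Cas9 knockout (KO) of the envelope (env) gene of HERV-K119, SKOV3 mock control cells, OVCAR3 cells with the same KO, and OVCAR3 mock control cells. HERV-K119 is a provirus of the HERV-K family. Both the KO and the mock cells were exposed to hygromycin at 100 μg/mL for 2 days, starting about 18 h after transfection. The comparison asks how gene expression differs when the env gene is knocked out. Each group was 1 library of total RNA, so within a line no replicates stand behind a difference. Whether a KO culture was a clone or a pool is not stated in the labels.

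Splicing removes introns in the spliceosome, whose U1 and U2 particles mark the 5′ splice site and the branch site. SNRP genes encode the Sm proteins, which form a ring around the particles' RNAs, and a few proteins that belong to U1 or U2 alone. SR proteins bind exonic enhancers through RNA recognition motifs and recruit the spliceosome through domains rich in arginine and serine. hnRNP proteins coat nascent transcripts and often repress splice sites, so the balance between SR and hnRNP proteins sets many exon choices. Many SRSF and HNRNP genes also control their own level, through alternative exons or introns that send the transcript to nonsense-mediated decay.

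The promoters of 4 members whose OVCAR3 ratios went in different directions are shown, since the families differed in the motifs there. Each is the RefSeq window (GRCh38.p14) from 250 bases before to 50 bases after the gene's start, written 5′ to 3′ on the gene's strand. Capitals mark CCGGAAG, an ETS-type motif, in SNRPB2, SNRPB and SRSF5, and CACGTG, an E-box, in HNRNPD, whose window also holds the ETS-type motif on the opposite strand, left in lower case. Both strands were searched, and the second match in SNRPB2 lies on the opposite strand. The SNRPB2 window is chr20:16729776-16730075 on the plus strand, that of SNRPB is chr20:2470740-2471039 on the minus strand, that of SRSF5 is chr14:69766892-69767191 on the plus strand and that of HNRNPD is chr4:82373942-82374241 on the minus strand.
SNRPB2: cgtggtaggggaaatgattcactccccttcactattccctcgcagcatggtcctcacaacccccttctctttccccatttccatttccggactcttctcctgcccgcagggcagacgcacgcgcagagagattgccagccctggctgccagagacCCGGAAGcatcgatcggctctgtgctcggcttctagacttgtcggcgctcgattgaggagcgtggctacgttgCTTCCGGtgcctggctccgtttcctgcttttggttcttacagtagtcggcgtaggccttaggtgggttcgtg
SNRPB: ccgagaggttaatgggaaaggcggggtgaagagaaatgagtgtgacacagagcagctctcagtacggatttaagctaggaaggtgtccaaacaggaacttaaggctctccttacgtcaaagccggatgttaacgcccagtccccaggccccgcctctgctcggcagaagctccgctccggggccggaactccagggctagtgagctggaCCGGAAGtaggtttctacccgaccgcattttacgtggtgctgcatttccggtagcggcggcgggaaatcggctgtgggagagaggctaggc
SRSF5: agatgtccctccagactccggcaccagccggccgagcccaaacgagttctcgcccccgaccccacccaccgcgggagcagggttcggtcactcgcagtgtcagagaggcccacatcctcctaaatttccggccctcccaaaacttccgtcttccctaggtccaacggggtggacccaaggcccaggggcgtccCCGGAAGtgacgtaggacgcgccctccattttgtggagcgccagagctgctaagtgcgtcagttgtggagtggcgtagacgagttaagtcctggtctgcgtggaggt
HNRNPD: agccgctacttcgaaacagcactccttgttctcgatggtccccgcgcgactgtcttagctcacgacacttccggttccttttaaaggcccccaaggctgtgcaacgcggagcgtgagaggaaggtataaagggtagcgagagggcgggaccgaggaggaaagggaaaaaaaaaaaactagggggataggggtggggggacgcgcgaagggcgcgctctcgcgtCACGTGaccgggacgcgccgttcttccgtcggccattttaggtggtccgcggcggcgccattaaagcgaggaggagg

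CCGGAAG stood in 7 of the 10 SNRP promoters in the RefSeq table (SNRPA1, SNRPB, SNRPB2, SNRPC, SNRPD2, SNRPE and SNRPG), in 2 of 10 SRSF promoters and in 3 of 19 HNRNP promoters. It stood in 21.9% of the promoters of 9937 measured protein-coding genes and in 12.2% of all 27305 promoters of that length. The 7 SNRP genes with it did not share a direction, since 5 had an OVCAR3 ratio above 0 and 2, SNRPB and SNRPC, a ratio below 0. CACGTG stood in 7 of 19 HNRNP promoters, in 0 of 10 SRSF and in 0 of 10 SNRP promoters, against 12.5% of the measured protein-coding genes. The HNRNP genes with it also went both ways, with 4 above and 3 below 0 in OVCAR3. Of the other motifs searched on both strands, CCAATC (NFY) stood in 8 HNRNP, 3 SNRP and 2 SRSF promoters and GGGGCGGGG (SP) in 7 HNRNP, 1 SNRP and 1 SRSF promoter. AAGATGGC (YY1) and TGACGTCA (CRE) stood in 0 of the 39 member promoters. Among the measured protein-coding genes these 4 motifs stood in 23.3%, 33.7%, 6.31% and 3.75% of promoters, in the order given. GCGCATGCG (NRF1) stood in the promoters of SRSF7, SRSF10 and HNRNPH1, 3 of 39, against 4.03% of the measured protein-coding genes. The choice of letters decided this count, since a first search with a further C at the end, the palindromic form, found it in 0 of 39 against 2.56%. HNRNPA1, SNRPD1 and SRSF2 have no entry in the promoter table used.

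The libraries held 15145483 counts in SKOV3 KO, 22057693 in SKOV3 mock, 15825915 in OVCAR3 KO and 16298490 in OVCAR3 mock cells. Mitochondrially encoded genes took 21.9% of the counts of the OVCAR3 KO library, against between 5.16% and 5.93% in the other 3. No value for the env gene of the targeted provirus is given, as that locus was not analysed here. EPCAM, an epithelial marker, lay between 268 and 352 scaled CPM (explained for the members in the next paragraph), while WT1, an ovarian epithelial marker, was at 0 in all 4 libraries. CDKN2A, which is deleted in SKOV3, had 91.2 scaled CPM in the SKOV3-labelled KO library and 90.6 in the SKOV3-labelled mock library, so SKOV3 is used here as the label of the pair. The 9 ovarian epithelial markers summed to 1612 scaled CPM in OVCAR3 KO and 5053 in OVCAR3 mock cells, and to 3167 in SKOV3 KO and 3398 in SKOV3 mock cells. Of the 8 measured in the OVCAR3 pair, 7 were lower in KO cells, against 50.7% of measured protein-coding genes. At least 2-fold lower were 5 of the 8 and 2-fold higher 1, against 18.3% and 13% of those genes. Their median log2 ratio of KO over mock was -1.38. In the SKOV3 pair 0 of 7 passed 2-fold, with a median of -0.08. PTPRC and CD3E of the leukocyte list and COL3A1 and LUM of the fibroblast list were at 0 in every library. The 5 leukocyte markers summed to 9.57 in OVCAR3 KO and 15.8 in OVCAR3 mock cells, and to 34.9 and 35.7 in SKOV3 KO and SKOV3 mock cells. Of these 5, 2 reached 1 scaled CPM in the OVCAR3 pair and went opposite ways, with log2 ratios of KO over mock of 1.60 and -0.88. The 6 fibroblast markers, nearly all of it COL1A1, summed to 35.2 in OVCAR3 KO and 20.6 in OVCAR3 mock cells, and to 19.3 and 17.7 in SKOV3 KO and SKOV3 mock cells. The 4 endothelial markers summed to between 0.487 and 2.31 in the 4 libraries. The part of these differences in the results was not tested. In such bulk libraries fewer cells of a type and less RNA per cell cannot be told apart.

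Of the 49 members, 43 were measured in the SKOV3 pair and 42 in the OVCAR3 pair, meaning at least 1 scaled CPM in KO or mock cells. Scaled CPM are counts per 1e6 of the library's total multiplied by its TMM factor. A log2 ratio is KO over mock with a prior count of 2, its bracketed interval covers counting error only, and a member is called higher or lower at a 2-fold difference. HNRNPCL1, HNRNPCL2, HNRNPCL3 and HNRNPCL4, close copies of HNRNPC, and SNRPN, the Sm protein gene typical of brain, had 0 counts in every library. A count of 0 allows up to 0.198 CPM in SKOV3 KO, 0.136 in SKOV3 mock, 0.190 in OVCAR3 KO and 0.184 in OVCAR3 mock cells, for counting error only. PRPF8 and LSM2, which splicing in every cell uses, and SNURF, which overlaps SNRPN, are also listed at 0 in all 4 libraries, so a listed 0 is not read here as absence of the transcript. SRSF12, an SR protein that opposes other SR proteins, had 2 counts in SKOV3 KO, 0 in SKOV3 mock, 4 in OVCAR3 KO and 4 in OVCAR3 mock cells. HNRNPR passed in the SKOV3 pair only.

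**Figure D1:**
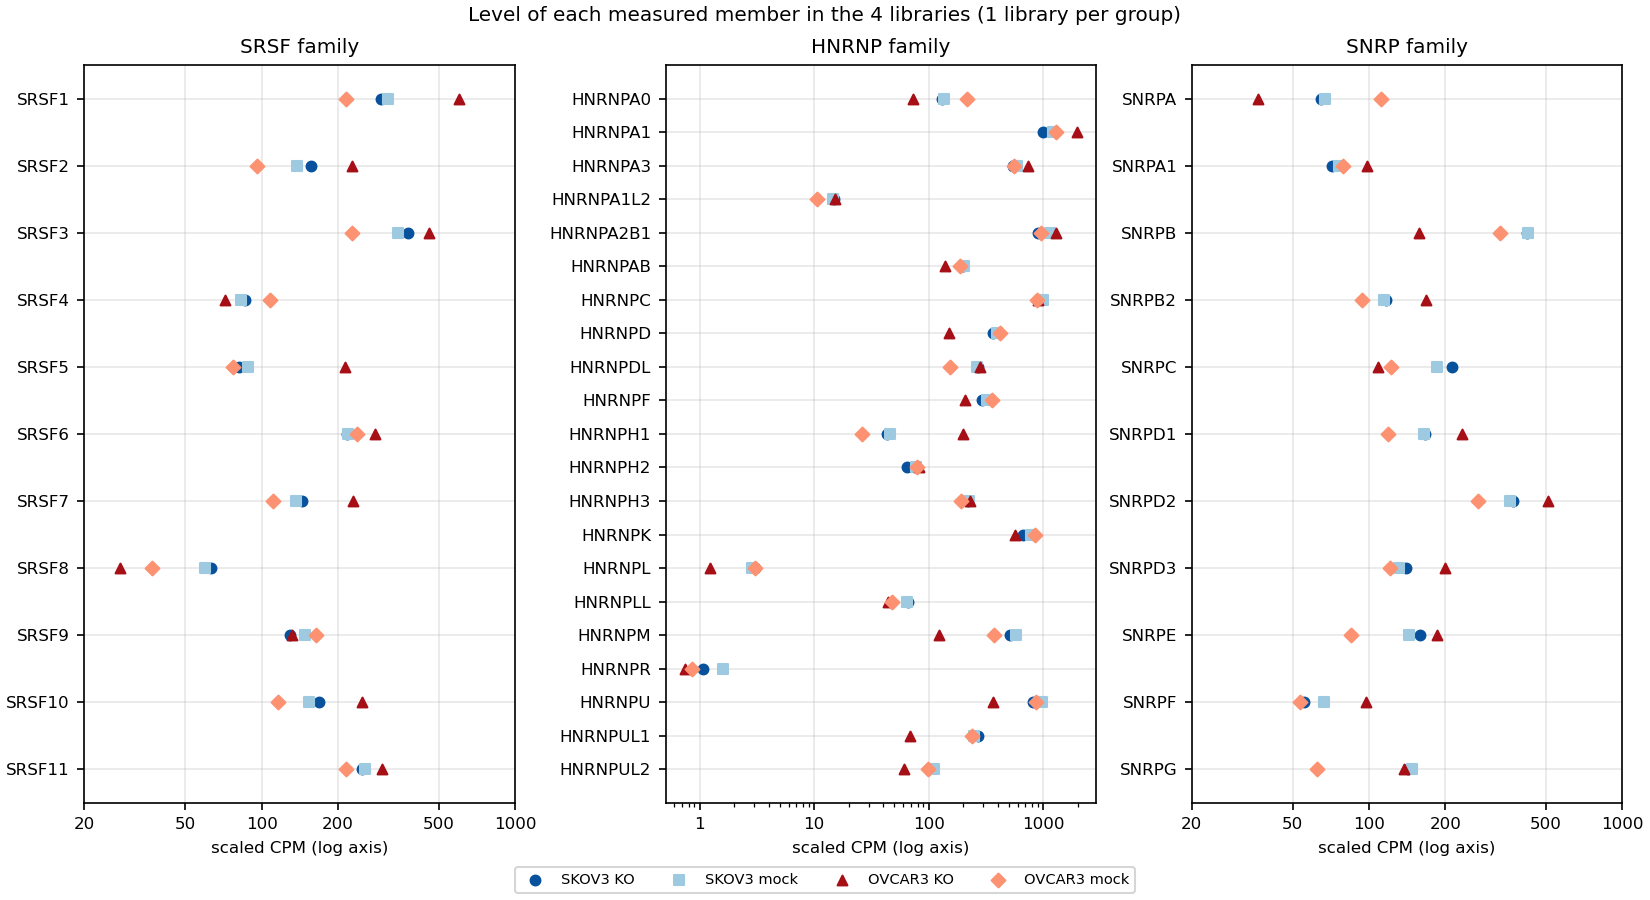
Scaled CPM (log axis) of each member measured in at least 1 pair, in SKOV3 KO, SKOV3 mock, OVCAR3 KO and OVCAR3 mock cells, 1 point per library. The SKOV3 points of a gene nearly coincide, while the OVCAR3 KO triangle often stands apart, as for SRSF1 at 601 in OVCAR3 KO against 216 in OVCAR3 mock cells.

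SR proteins had many higher members and no lower ones in the OVCAR3 pair. SRSF1, SRSF2, SRSF3, SRSF5, SRSF7 and SRSF10 were at least 2-fold higher in OVCAR3 KO than in OVCAR3 mock cells, 6 of the 11 measured, and 0 were 2-fold lower. Of these 6, 2 passed 2-fold under every scaling tried, and 3 with the trend on GC content and transcript length taken out. The family median was 1.00 on the log2 scale, and the summed counts of the family gave a ratio of 0.80 (0.77 to 0.82). In the SKOV3 pair 0 of 11 SRSF genes passed 2-fold, and the median log2 ratio was 0.04. Across all measured genes 22.5% were 2-fold higher in OVCAR3 KO and 15.4% were 2-fold lower, and across protein-coding genes 13% were higher and 18.3% lower. In SKOV3 KO 0.799% of all measured genes were higher and 0.739% lower, and of protein-coding genes 0.641% were higher and 0.337% lower. The median log2 ratio in OVCAR3 was 0.16 over 15560 measured genes and -0.02 over 12544 protein-coding genes.

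SRSF1, the prototype SR protein and an oncogene in several cancers (chromosome 17, 57989038 to 58007246), had 601 scaled CPM in OVCAR3 KO and 216 in OVCAR3 mock cells, and 297 scaled CPM in SKOV3 KO and 315 in SKOV3 mock cells. Its log2 ratios were 1.48 (1.42 to 1.54) in OVCAR3 and -0.09 (-0.14 to -0.04) in SKOV3, so the OVCAR3 KO library was the highest of the 4 and both SKOV3 libraries lay between the OVCAR3 ones. SRSF1 was also the SRSF gene with the highest level per length in all 4 libraries, at 180.1 scaled CPM per kb of exon in OVCAR3 KO, 64.6 in OVCAR3 mock, 88.8 in SKOV3 KO and 94.4 in SKOV3 mock cells. SRSF5, whose promoter is printed above (chromosome 14, 69767142 to 69772005), had 214 scaled CPM in OVCAR3 KO and 76.9 in OVCAR3 mock cells, and 81.3 scaled CPM in SKOV3 KO and 88.7 in SKOV3 mock cells. It was higher in OVCAR3 KO than in the other 3 libraries, which lay close together, with a log2 ratio of 1.47 (1.38 to 1.57) in OVCAR3 and -0.12 (-0.23 to -0.02) in SKOV3. SRSF2, a nuclear speckle protein also known as SC35, had 227 scaled CPM in OVCAR3 KO and 95.9 in OVCAR3 mock cells, and 156 scaled CPM in SKOV3 KO and 138 in SKOV3 mock cells. SRSF2 leaned the same way in both pairs, with log2 ratios of 1.25 (1.16 to 1.33) in OVCAR3 and 0.18 (0.11 to 0.26) in SKOV3.

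SRSF10, which acts as a splicing repressor when dephosphorylated, had 248 scaled CPM in OVCAR3 KO and 116 in OVCAR3 mock cells, and 168 scaled CPM in SKOV3 KO and 153 in SKOV3 mock cells. SRSF7, an SR protein with a zinc knuckle, had 228 scaled CPM in OVCAR3 KO and 111 in OVCAR3 mock cells, and 144 scaled CPM in SKOV3 KO and 137 in SKOV3 mock cells. SRSF3, the smallest SR protein and a link to mRNA export, had 457 scaled CPM in OVCAR3 KO and 228 in OVCAR3 mock cells, and 379 scaled CPM in SKOV3 KO and 346 in SKOV3 mock cells. These 3 lay just past the 2-fold line in OVCAR3, at 1.09 (1.01 to 1.18), 1.04 (0.96 to 1.12) and 1.00 (0.95 to 1.06) on the log2 scale, and at 0.13, 0.07 and 0.13 in SKOV3. SRSF3 was the last member inside the line, and SNRPD1 at 0.96 the first outside it.

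The other 5 measured SR proteins split by direction. SRSF11 had 299 scaled CPM in OVCAR3 KO and 216 in OVCAR3 mock cells, and 248 scaled CPM in SKOV3 KO and 255 in SKOV3 mock cells. SRSF6 had 280.3 scaled CPM in OVCAR3 KO and 237 in OVCAR3 mock cells, and 218 scaled CPM in SKOV3 KO and 219 in SKOV3 mock cells. Their OVCAR3 log2 ratios were 0.47 (0.40 to 0.53) for SRSF11 and 0.24 (0.18 to 0.31) for SRSF6, and that of SRSF6 turned negative when TMM was computed on all rows. SRSF4, an SR protein with a long arginine and serine domain, had 71.8 scaled CPM in OVCAR3 KO and 108 in OVCAR3 mock cells, and 85.8 scaled CPM in SKOV3 KO and 83.2 in SKOV3 mock cells. SRSF8, which arose as a retrocopy of SRSF2, had 27.7 scaled CPM in OVCAR3 KO and 37.0 in OVCAR3 mock cells, and 63.2 scaled CPM in SKOV3 KO and 59.6 in SKOV3 mock cells. SRSF9 had 132 scaled CPM in OVCAR3 KO and 164 in OVCAR3 mock cells, and 129.5 scaled CPM in SKOV3 KO and 148 in SKOV3 mock cells. SRSF4, SRSF8 and SRSF9 were the SRSF genes below 0 in OVCAR3, at -0.58, -0.42 and -0.31, and SRSF9 was also the lowest in SKOV3 at -0.19 (-0.27 to -0.11).

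**Figure D2:**
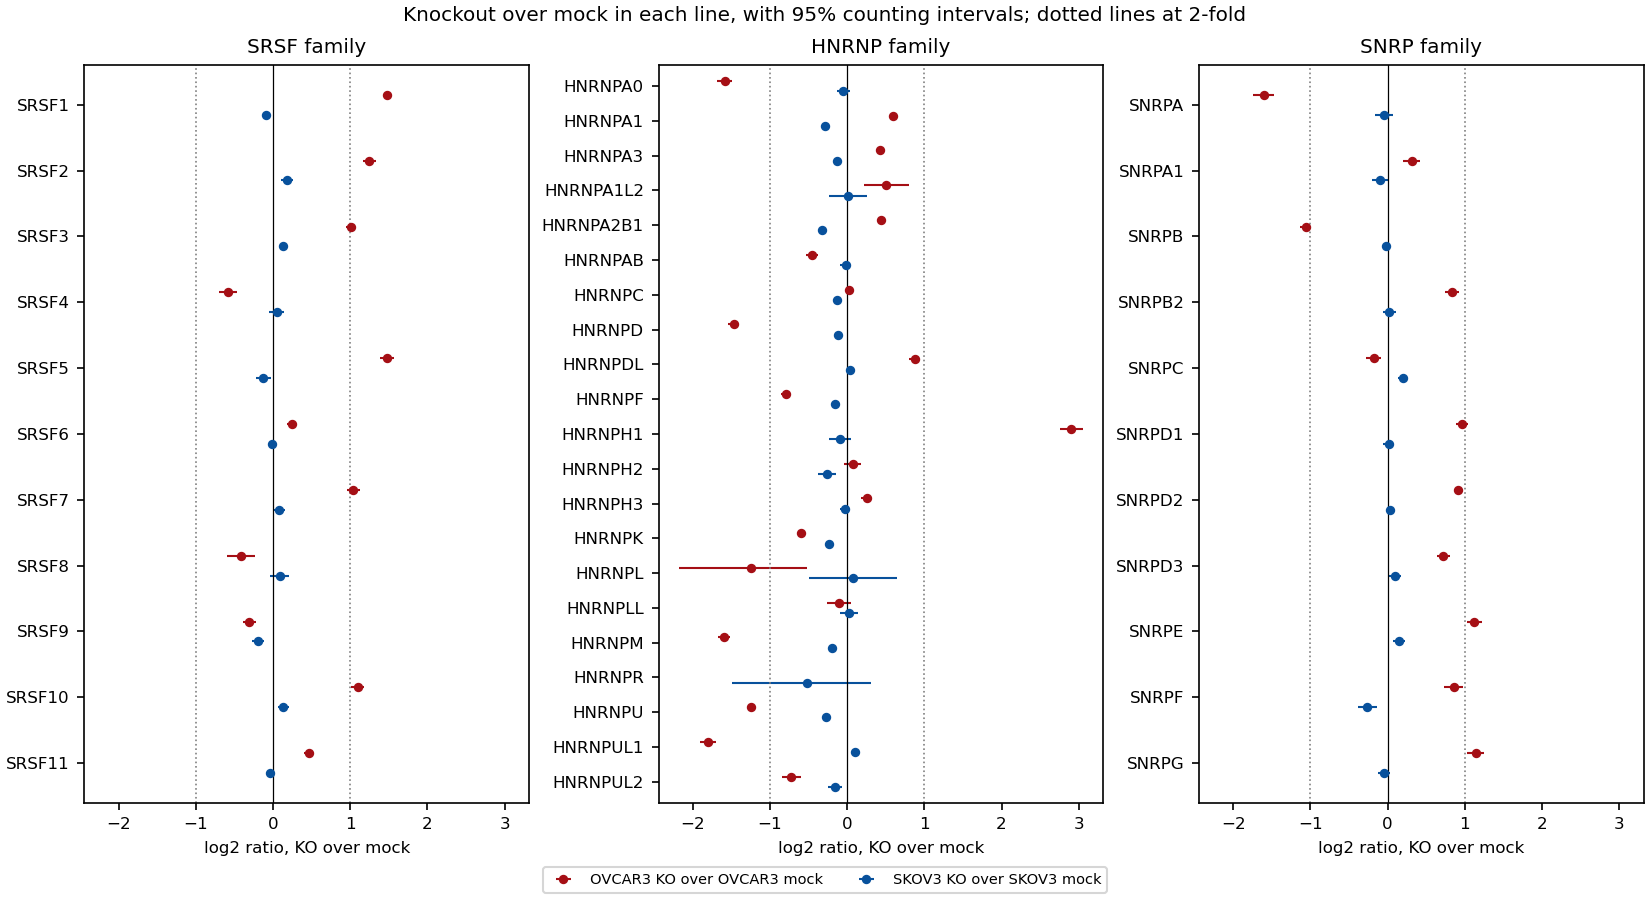
Log2 ratio of KO over mock for each measured member, with OVCAR3 in red and SKOV3 in blue. Bars are 95% counting intervals, with no replicate error, and dotted lines mark 2-fold. All SKOV3 points lie within 2-fold, while OVCAR3 points run from -1.80 for HNRNPUL1 to 2.90 for HNRNPH1.

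HNRNP genes in OVCAR3 ran from the highest ratio of all members to the lowest. Of the 20 measured, HNRNPH1 was 2-fold higher, and HNRNPUL1, HNRNPM, HNRNPA0, HNRNPD, HNRNPU and HNRNPL were 2-fold lower in OVCAR3 KO than in OVCAR3 mock cells. The median log2 ratio was -0.28, with 9 genes above and 11 below 0, and the summed counts of the family gave -0.06 (-0.07 to -0.05). In SKOV3 the family leaned slightly down, with 16 of 21 genes below 0, a median of -0.13 and a summed ratio of -0.19 (-0.20 to -0.18). The median over all 13524 measured genes in SKOV3 was 0.01, and 0 HNRNP genes passed 2-fold there. So 1 of 20 HNRNP genes was higher where 13% of protein-coding genes were, and 6 of 20 were lower where 18.3% were.

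Of the A/B group, which binds splicing silencers, HNRNPA1 was the most abundant member per length in every library, at 386 scaled CPM per kb of exon in OVCAR3 KO, 256 in OVCAR3 mock, 197 in SKOV3 KO and 241 in SKOV3 mock cells. HNRNPA1, the classic antagonist of SRSF1 (chromosome 12, 54280726 to 54287087), had 1965 scaled CPM in OVCAR3 KO and 1301 in OVCAR3 mock cells, and 1006 scaled CPM in SKOV3 KO and 1226 in SKOV3 mock cells. HNRNPA2B1, which reads sorting signals in RNA as well as silencers, had 1284 scaled CPM in OVCAR3 KO and 951 in OVCAR3 mock cells, and 903 scaled CPM in SKOV3 KO and 1136 in SKOV3 mock cells. Both lay above 0 in OVCAR3 and below 0 in SKOV3, within 2-fold in each line, at 0.59 (0.57 to 0.62) and -0.29 (-0.31 to -0.26) for HNRNPA1 and at 0.43 (0.40 to 0.46) and -0.33 (-0.36 to -0.30) for HNRNPA2B1. HNRNPA3 showed the same pair of directions, at 0.42 (0.38 to 0.46) in OVCAR3 and -0.13 (-0.16 to -0.09) in SKOV3. HNRNPA1L2, a retrocopy of HNRNPA1 with which it can share reads, had 15.1 scaled CPM in OVCAR3 KO and 10.7 in OVCAR3 mock cells, and 14.8 scaled CPM in SKOV3 KO and 14.7 in SKOV3 mock cells. HNRNPA0, a member that also binds AU-rich elements, went the other way (chromosome 5, 137745651 to 137754363). HNRNPA0 had 72.2 scaled CPM in OVCAR3 KO and 217 in OVCAR3 mock cells, and 132 scaled CPM in SKOV3 KO and 136 in SKOV3 mock cells, and its log2 ratio was -1.58 (-1.68 to -1.49) in OVCAR3 and -0.05 (-0.13 to 0.03) in SKOV3. HNRNPAB lay at -0.46 in OVCAR3 and -0.02 in SKOV3.

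HNRNPC, which packages nascent transcripts and binds uridine tracts, was nearly level in OVCAR3, at a log2 ratio of 0.03 (-0.005 to 0.06). This interval spans 0, and the sign turned negative with DESeq2 size factors, library totals or TMM on all rows. In SKOV3 it lay at -0.13 (-0.16 to -0.10). The D pair, whose proteins bind AU-rich elements, split. HNRNPD, whose promoter is printed above (chromosome 4, 82352498 to 82373991), had 151 scaled CPM in OVCAR3 KO and 419 in OVCAR3 mock cells, and 367 scaled CPM in SKOV3 KO and 399 in SKOV3 mock cells. HNRNPDL had 279 scaled CPM in OVCAR3 KO and 152 in OVCAR3 mock cells, and 271 scaled CPM in SKOV3 KO and 264 in SKOV3 mock cells. The OVCAR3 log2 ratio was -1.47 (-1.54 to -1.40) for HNRNPD and 0.87 (0.80 to 0.95) for HNRNPDL, while in SKOV3 the values were -0.12 and 0.04.

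HNRNPH1, which binds runs of guanines (chromosome 5, 179614178 to 179634784), had the widest difference of the 49 members. HNRNPH1 had 198 scaled CPM in OVCAR3 KO and 26.4 in OVCAR3 mock cells, and 43.5 scaled CPM in SKOV3 KO and 46.2 in SKOV3 mock cells. The OVCAR3 log2 ratio was 2.90 (2.76 to 3.06), a 7.48-fold difference, and the SKOV3 log2 ratio was -0.09 (-0.23 to 0.05). The symbol stands in 2 rows of the tables, with 2896 counts in OVCAR3 KO and 420 in OVCAR3 mock cells in the first, and 20 and 13 counts in the second. Protein-coding symbols that stand in several rows were low in these tables. Only 273 of 972 such symbols (28.1%) reached 1 CPM in a library, with a median of 2.27 CPM, against 12363 of 17931 symbols with 1 row (68.9%), with a median of 28.8 CPM, so the level of HNRNPH1 is uncertain. Of its relatives, HNRNPF lay at -0.79 (-0.86 to -0.73) in OVCAR3 and -0.15 (-0.21 to -0.10) in SKOV3. HNRNPH2 lay at 0.07 in OVCAR3 and -0.26 in SKOV3, and HNRNPH3 at 0.25 and -0.03. The OVCAR3 sign of both turned negative with TMM on all rows, and that of HNRNPH2 also with DESeq2 size factors or library totals.

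HNRNPM, a regulator of splicing in epithelial and mesenchymal states (chromosome 19, 8444975 to 8489114), had 123 scaled CPM in OVCAR3 KO and 373 in OVCAR3 mock cells, and 512 scaled CPM in SKOV3 KO and 585 in SKOV3 mock cells. HNRNPU, a scaffold protein that binds both chromatin and RNA (chromosome 1, 244850297 to 244864543), had 362 scaled CPM in OVCAR3 KO and 860.2 in OVCAR3 mock cells, and 819 scaled CPM in SKOV3 KO and 986 in SKOV3 mock cells. HNRNPUL1, a relative of HNRNPU with a role at DNA breaks (chromosome 19, 41262557 to 41307787), had 68.3 scaled CPM in OVCAR3 KO and 238 in OVCAR3 mock cells, and 269 scaled CPM in SKOV3 KO and 250.3 in SKOV3 mock cells. All 3 were the lowest of the 4 libraries in OVCAR3 KO cells, with OVCAR3 log2 ratios of -1.60 (-1.68 to -1.52), -1.25 (-1.30 to -1.20) and -1.80 (-1.90 to -1.70). In SKOV3 HNRNPM at -0.19 (-0.23 to -0.15) and HNRNPU at -0.27 (-0.30 to -0.24) lay slightly below 0, and HNRNPUL1 at 0.11 (0.05 to 0.16) was the highest HNRNP gene. HNRNPUL2 lay at -0.72 in OVCAR3 and -0.16 in SKOV3, and shares its sequence with the readthrough symbol HNRNPUL2-BSCL2, which had 400 counts in OVCAR3 KO, 1813 in OVCAR3 mock, 1555 in SKOV3 KO and 2187 in SKOV3 mock cells.

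HNRNPK, which binds cytosine-rich RNA and DNA, lay at -0.60 (-0.64 to -0.56) in OVCAR3 and -0.24 (-0.27 to -0.20) in SKOV3. HNRNPLL, a regulator of exon choice in lymphocytes, had 44.5 scaled CPM in OVCAR3 KO and 47.9 in OVCAR3 mock cells, and 65.8 scaled CPM in SKOV3 KO and 64.7 in SKOV3 mock cells. HNRNPL, which binds CA repeats, had 1.22 scaled CPM in OVCAR3 KO and 3.04 in OVCAR3 mock cells, and 3.04 scaled CPM in SKOV3 KO and 2.88 in SKOV3 mock cells. HNRNPR, a relative of SYNCRIP, had 0.747 scaled CPM in OVCAR3 KO and 0.852 in OVCAR3 mock cells, and 1.08 scaled CPM in SKOV3 KO and 1.59 in SKOV3 mock cells. HNRNPL and HNRNPR also stand in 2 rows each and rested on few counts, 18 in OVCAR3 KO and 50 in OVCAR3 mock cells for HNRNPL, and 17 in SKOV3 KO and 36 in SKOV3 mock cells for HNRNPR. The interval of the HNRNPL ratio in OVCAR3 ran from -2.18 to -0.51 around -1.24, and that of HNRNPR in SKOV3 from -1.49 to 0.31 around -0.52.

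SNRP genes in OVCAR3 went both ways, with SNRPB and both U1 genes below 0 and the other 8 above 0. The median over the 7 measured Sm genes was 0.92 on the log2 scale, and their summed counts gave 0.55 (0.52 to 0.58). The 6 other than SNRPB lay between 0.72 and 1.14 with a median of 0.94, and their summed counts, chosen after the values were seen, gave 0.94 (0.91 to 0.97). With the trend on GC content and transcript length described further on taken out, SNRPF lay at -0.20 and none of these 6 was past 2-fold. SNRPG and SNRPE passed 2-fold upwards, and SNRPA and SNRPB downwards. The median of the 11 measured SNRP genes was 0.84, with 2 of 11 higher against 13% of protein-coding genes and 2 of 11 lower against 18.3%. In SKOV3 the SNRP median was 0.02, and 0 of 11 passed 2-fold.

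SNRPG had 138 scaled CPM in OVCAR3 KO and 62.2 in OVCAR3 mock cells, and 143 scaled CPM in SKOV3 KO and 147 in SKOV3 mock cells. SNRPE had 186 scaled CPM in OVCAR3 KO and 85.2 in OVCAR3 mock cells, and 159 scaled CPM in SKOV3 KO and 143 in SKOV3 mock cells. These are neighbours in the ring, and for both the OVCAR3 mock library was the lowest of the 4, with OVCAR3 log2 ratios of 1.14 (1.04 to 1.25) and 1.12 (1.03 to 1.22). SNRPG in OVCAR3 KO thus reached about the SKOV3 level and not above it. SNRPD1 had 232 scaled CPM in OVCAR3 KO and 119 in OVCAR3 mock cells, and 167 scaled CPM in SKOV3 KO and 165 in SKOV3 mock cells. SNRPD2 had 509 scaled CPM in OVCAR3 KO and 269 in OVCAR3 mock cells, and 368 scaled CPM in SKOV3 KO and 360.3 in SKOV3 mock cells. SNRPD3 had 200.2 scaled CPM in OVCAR3 KO and 121 in OVCAR3 mock cells, and 141 scaled CPM in SKOV3 KO and 132 in SKOV3 mock cells. The OVCAR3 log2 ratios of these 3 D proteins were 0.96, 0.92 and 0.72, with the OVCAR3 KO library the highest of the 4 for each. SNRPF, which sits beside SNRPE in the ring, had 97.0 scaled CPM in OVCAR3 KO and 53.4 in OVCAR3 mock cells, and 55.6 scaled CPM in SKOV3 KO and 66.7 in SKOV3 mock cells. SNRPF lay on opposite sides of 0, at 0.86 (0.74 to 0.98) in OVCAR3 and -0.26 (-0.38 to -0.14) in SKOV3, where it was the lowest SNRP gene.

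SNRPB, which encodes the B and B′ proteins and regulates its own splicing (chromosome 20, 2461642 to 2470789), was the exception in the ring. SNRPB had 157 scaled CPM in OVCAR3 KO and 327 in OVCAR3 mock cells, and 419 scaled CPM in SKOV3 KO and 426 in SKOV3 mock cells, with a log2 ratio of -1.06 (-1.13 to -0.99) in OVCAR3 and -0.02 (-0.07 to 0.02) in SKOV3. Per length it was the most abundant SNRP gene in SKOV3 KO (328 scaled CPM per kb of exon), SKOV3 mock (333) and OVCAR3 mock cells (256). In OVCAR3 KO cells it had 123, and SNRPD2 led there with 317. Within the counts of the family, SNRPB made up 8.14% in OVCAR3 KO and 22.7% in OVCAR3 mock cells, against 21.8% in SKOV3 KO and 22.6% in SKOV3 mock cells.

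Of the U1 proteins, SNRPA (the A protein of U1, chromosome 19, 40751203 to 40765389) had 36.7 scaled CPM in OVCAR3 KO and 112 in OVCAR3 mock cells, and 64.8 scaled CPM in SKOV3 KO and 67.1 in SKOV3 mock cells. SNRPC, the C protein of U1, which contacts the 5′ splice site, had 108 scaled CPM in OVCAR3 KO and 122 in OVCAR3 mock cells, and 213 scaled CPM in SKOV3 KO and 186 in SKOV3 mock cells. SNRPA in OVCAR3 KO was the lowest of the 4 libraries with a log2 ratio of -1.60 (-1.75 to -1.47), and SNRPC lay at -0.18 (-0.27 to -0.08) in OVCAR3 and, as the highest SNRP gene, at 0.20 (0.13 to 0.26) in SKOV3. Of the U2 proteins, SNRPA1 (the A′ protein of U2) had 98.2 scaled CPM in OVCAR3 KO and 79.1 in OVCAR3 mock cells, and 71.4 scaled CPM in SKOV3 KO and 76.1 in SKOV3 mock cells. SNRPB2 (the B″ protein of U2), whose promoter is printed above, had 167 scaled CPM in OVCAR3 KO and 93.6 in OVCAR3 mock cells, and 117 scaled CPM in SKOV3 KO and 115 in SKOV3 mock cells. Both U2 genes lay above 0 in OVCAR3, at 0.31 (0.20 to 0.42) and 0.84 (0.75 to 0.93), and at -0.09 (-0.20 to 0.02) and 0.02 (-0.06 to 0.11) in SKOV3, where both intervals span 0.

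**Figure D3:**
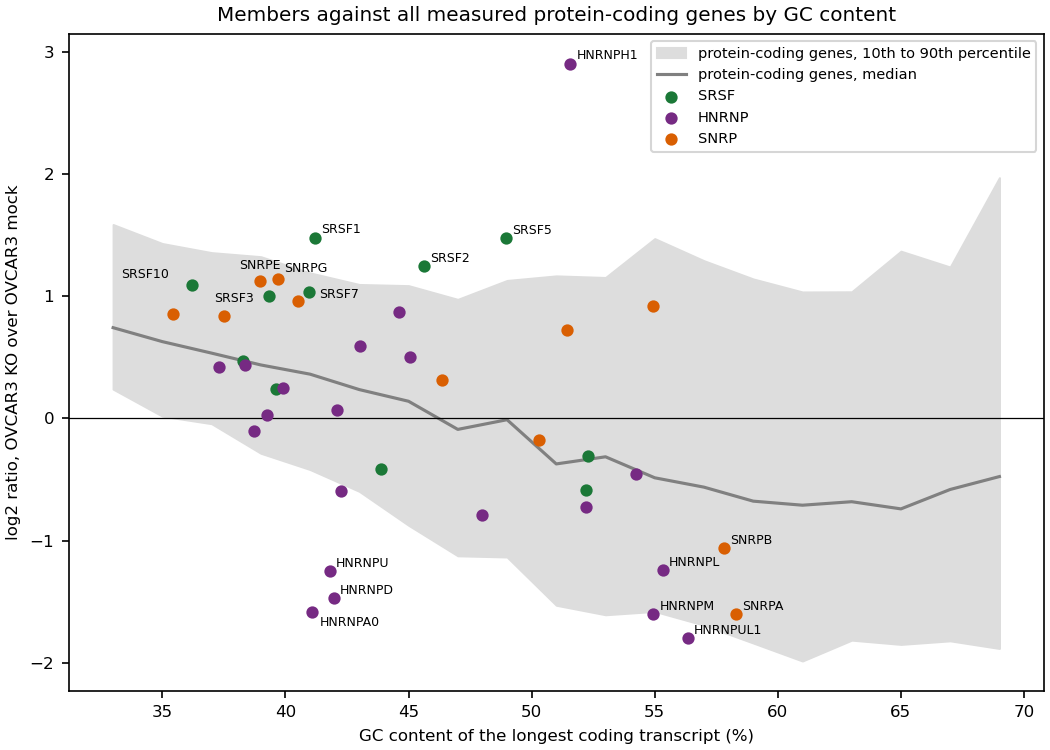
OVCAR3 log2 ratio (KO over mock) of the 42 measured members against the GC content of their longest coding transcript. The grey line and band are the median and the 10th to 90th percentile of measured protein-coding genes in bins of GC content. The line slopes down, and HNRNPH1, SRSF1, SRSF2 and SRSF5 lie above the band, and HNRNPA0, HNRNPD, HNRNPU, HNRNPUL1 and, just past its edge, HNRNPM and HNRNPK below it.

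Base composition moved with the OVCAR3 ratio. The median GC content was 40.9% in the 9 members that were 2-fold higher in OVCAR3 KO, 55.1% in the 8 that were 2-fold lower and 49.0% in 12544 measured protein-coding genes. The 8 lower members were split, with HNRNPA0, HNRNPU and HNRNPD at 41.1%, 41.8% and 42.0% and the others between 54.9% and 58.3%. Across the 42 members Spearman's rho between ratio and GC content was -0.43 (Pearson's r -0.41), and across 12543 protein-coding genes rho was -0.42. Within the families rho was -0.22 for SRSF, -0.30 for HNRNP and -0.64 for SNRP genes. All these points come from the same pair of libraries. In the bin of the 2509 protein-coding genes with the lowest GC content the median ratio was 0.48. Of the 16 members in that bin 14 were above 0, with a median of 0.65. The share of all its genes above 0 was not counted. In narrower bins centred on 33%, 35%, 37% and 39% GC, the 10th percentile of protein-coding genes was 0.24, 0.02, -0.04 and -0.28. Most genes there were thus above 0 as well, so the 14 are not read as a trait of the members. In the other bins of equal size, in order of rising GC content, the gene medians were 0.22, -0.18, -0.51 and -0.70, and the members there numbered 10, 9, 7 and 0, with medians of 0.29, -0.18 and -1.24. In SKOV3 the same gene medians stayed between -0.03 and 0.06.

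With the trend on GC content and transcript length taken out across all protein-coding genes, the OVCAR3 medians were 0.39 for SRSF, -0.42 for HNRNP and 0.031 for SNRP, against -0.13 for protein-coding genes. SRSF1 at 1.05, SRSF2 at 1.13, SRSF5 at 1.55 and HNRNPH1 at 3.15 stayed past 2-fold upwards. HNRNPA0 at -1.92, HNRNPD at -1.84, HNRNPU at -1.51, HNRNPUL1 at -1.34, SNRPA at -1.33 and HNRNPM at -1.28 stayed past it downwards. HNRNPL at -0.92, SNRPB at -0.97, SRSF3 at 0.51, SRSF7 at 0.53, SRSF10 at 0.39, SNRPE at 0.031 and SNRPG at 0.19 did not. SNRPE and SNRPG, whose ratios moved most among the called members, have GC contents of 39.0% and 39.7%.

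**Figure D4:**
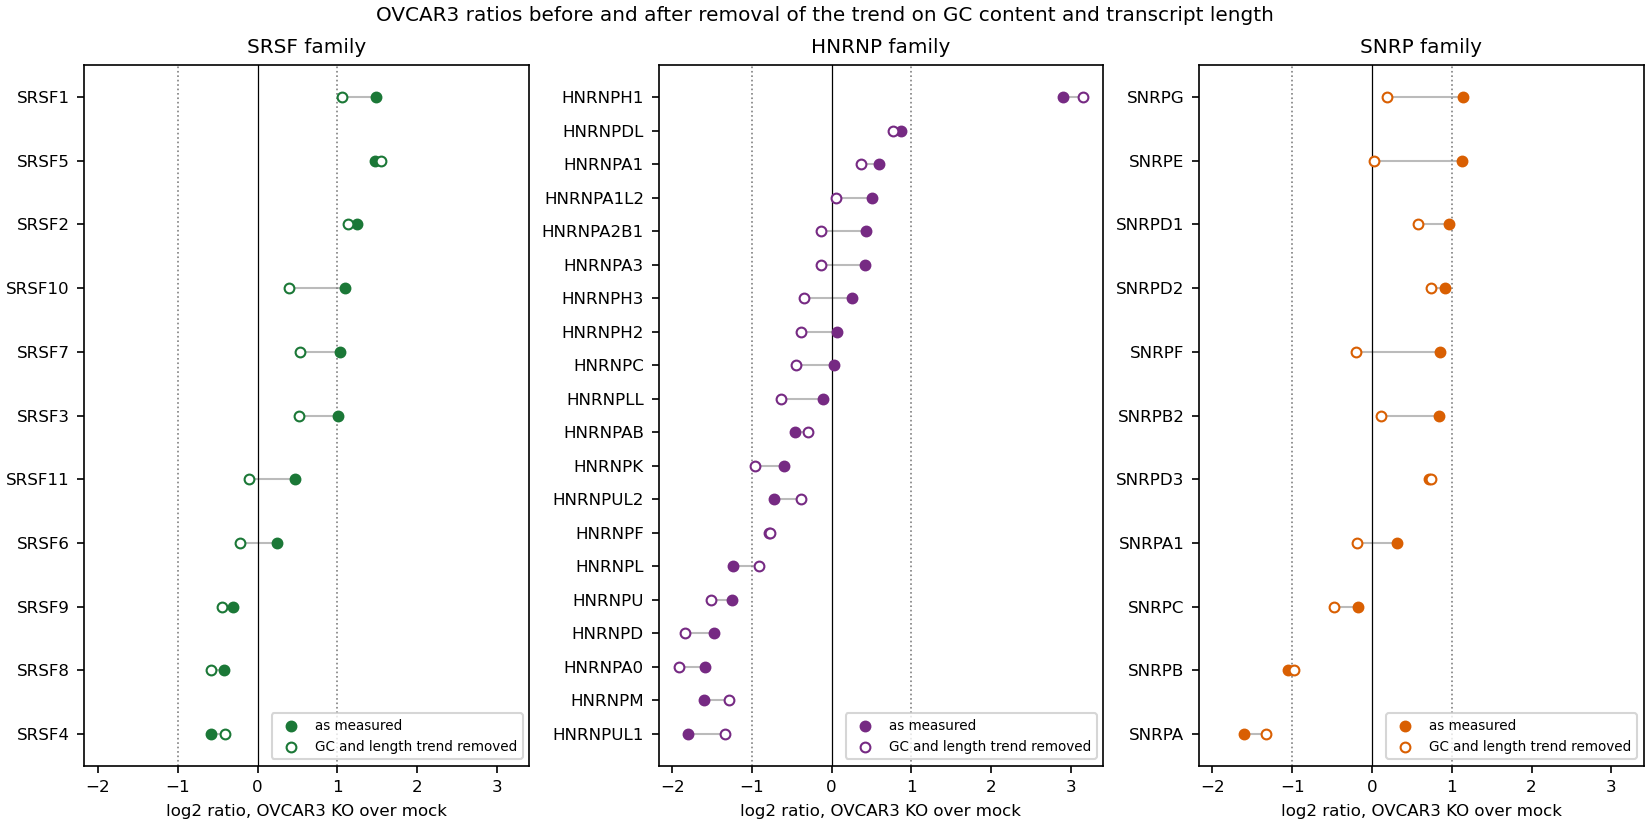
OVCAR3 log2 ratio (KO over mock) of each measured member as measured (filled) and after removal of the trend on GC content and transcript length fitted over all protein-coding genes (open), with dotted lines at 2-fold. SRSF5 hardly moves. HNRNPH1 lies at 3.15 with the trend removed and at 2.90 as measured, and SNRPE at 0.031 and 1.12.

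Scaling shifted all OVCAR3 ratios together. TMM on all rows lowered them by 0.29 on the log2 scale, DESeq2 size factors by 0.21 and library totals by 0.11, while TMM on protein-coding genes raised them by 0.07. The all-gene median was -0.17, -0.07, 0.04 and 0.23 under these settings. Of the 9 members called higher, 3 (HNRNPH1, SRSF1 and SRSF5) passed 2-fold under every scaling, and of the 8 called lower 7 did, SNRPB being the exception. All 17 kept their direction under every scaling and with the trend removed. The share of all genes past 2-fold under the other scalings was not counted.

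The annotation marks many members as sources of transcripts for nonsense-mediated decay. GENCODE 29 lists such a transcript for 27 of the 42 measured members (64.3%), against 42.7% of measured protein-coding genes. SRSF genes carried it in 11 of 11 cases, HNRNP genes in 12 of 20 and SNRP genes in 4 of 11. It was listed for 7 of the 9 members called higher and 7 of the 8 called lower in OVCAR3 KO, so it was common on both sides. A transcript with a retained intron was listed for 64.3% of members and 57.0% of protein-coding genes. The counts are per gene, so a shift between productive and decay isoforms was not analysed here.

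Shares within a family give a view that does not depend on scaling. HNRNPA1 took 26.3% of the HNRNP counts in OVCAR3 KO and 16.7% in OVCAR3 mock cells, against 13.6% in SKOV3 KO and 14.6% in SKOV3 mock cells. HNRNPM took 1.64% in OVCAR3 KO and 4.78% in OVCAR3 mock cells, against 6.93% in SKOV3 KO and 6.94% in SKOV3 mock cells. SRSF1 took 21.6% of the SRSF counts in OVCAR3 KO and 13.4% in OVCAR3 mock cells, against 15.1% in SKOV3 KO and 16.2% in SKOV3 mock cells. These genes had their outlying share in OVCAR3 KO cells, and for others it was in OVCAR3 mock cells. SRSF6 took 10.1% of the SRSF counts in OVCAR3 KO and 14.7% in OVCAR3 mock cells, against 11.1% in SKOV3 KO and 11.3% in SKOV3 mock cells. Its scaled CPM were nonetheless higher in OVCAR3 KO, at 280.3 against 237 in OVCAR3 mock cells. SNRPG took 7.13% of the SNRP counts in OVCAR3 KO and 4.31% in OVCAR3 mock cells, against 7.45% in SKOV3 KO and 7.83% in SKOV3 mock cells. Of the whole library, HNRNP genes took 0.696% of the counts in OVCAR3 KO and 0.786% in OVCAR3 mock cells, SRSF genes 0.260% and 0.162%, and SNRP genes 0.180% and 0.146%. In SKOV3 KO and SKOV3 mock cells the shares were 0.770% and 0.862% for HNRNP, 0.205% and 0.199% for SRSF, and 0.200% and 0.193% for SNRP genes. These depend on all other counts of the library, and shares within a family on the counts of the other members. Mitochondrially encoded genes took 21.9% of the counts in OVCAR3 KO and 5.93% in OVCAR3 mock cells.

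Between the mock libraries, the median log2 ratio of OVCAR3 mock over SKOV3 mock was -0.30 for SRSF, -0.17 for HNRNP and -0.38 for SNRP genes. SNRPG had the lowest value at -1.24 and SNRPA the highest at 0.73. The same median over all genes is not given here, so a shift shared by all genes cannot be told apart.

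No member passed the test of KO over mock across both lines. With the line as a block, edgeR's quasi-likelihood test over all 4 libraries called 0 of 13670 genes at a Benjamini-Hochberg adjusted p under 0.05 (0% of genes), and 0 of the 43 members tested. At an unadjusted p under 0.05 it had 147 genes (1.08%) and 0 members, and DESeq2 and limma-voom each called 0 genes as well, with 1 member, HNRNPH1, at an unadjusted p under 0.05. The lowest p of a member was 0.072 for HNRNPH1, with an adjusted p of 0.957 in edgeR and a log2 ratio of 1.41 across the lines. This fit has 1 residual degree of freedom per gene, which is how far KO over mock differed between the lines. Over all measured genes the log2 ratios had a standard deviation of 1.35 in OVCAR3 and 0.33 in SKOV3. The lack of calls is therefore not read as a lack of difference in either line. Across 42 members the OVCAR3 and SKOV3 log2 ratios had a Pearson's r of 0.16 and a Spearman's rho of 0.23, and the 2 lines share no library.

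Other parts of the splicing machinery were described in the same way, with lists drawn up by function. In SKOV3 0 genes of any list passed 2-fold. In OVCAR3 the counts of these lists are to be read against the 13% of measured protein-coding genes that were 2-fold higher and the 18.3% that were 2-fold lower. The snRNP-specific proteins had 11 of 34 measured genes 2-fold lower, 2 higher and a median of -0.36. SF3A1, SF3B2 and SART1, of the U2 particle and the tri-snRNP, lay lowest at -2.98, -2.56 and -2.45, and RNPC3 of the minor spliceosome and PPIH of the tri-snRNP were higher at 1.14 and 1.01. SF3A1 had 31.2 scaled CPM in OVCAR3 KO and 247 in OVCAR3 mock cells, against 216 in SKOV3 KO and 206 in SKOV3 mock cells. The LSm proteins, relatives of the Sm proteins that form rings on U6 and in mRNA decay, leaned up like the Sm genes, with 2 of 7 measured genes higher (LSM8 at 1.09 and LSM6 at 1.05), 0 lower and a median of 0.80. With the GC and length trend removed their median was 0.30. Of 14 measured snRNP assembly genes, 4 were lower and 0 higher, with PRMT5, the methylase of Sm proteins, at -1.72, GEMIN4 at -1.45 and STRAP at -1.19, and the median was -0.24.

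SR-related proteins were spread to both sides, with 4 of 18 higher, 4 lower and a median of 0.40, where 13% of protein-coding genes were higher and 18.3% lower. LUC7L3, a U1-associated protein, had 471 scaled CPM in OVCAR3 KO and 96.1 in OVCAR3 mock cells, against 163 in SKOV3 KO and 152 in SKOV3 mock cells, a log2 ratio of 2.29 in OVCAR3. RSRP1 at 2.09 and PNN at 1.44 were also higher, and RNPS1 at -1.50, THRAP3 at -1.29 and SON at -1.16 were lower. Among the kinases and the importin of SR proteins, 1 of 8 was higher (CLK2 at 2.84) and 1 lower (CLK3 at -1.72), with a median of -0.35. CLK2 rested on 139 counts in OVCAR3 KO and 20 in OVCAR3 mock cells. Of 32 other RNA-binding regulators, 2 were higher (TIA1 at 2.07 and PTBP2 at 1.11) and 9 lower, led by PTBP1 at -2.29, RBM10 at -2.20 and PCBP1 at -1.99, with a median of -0.08. PTBP1, which represses exons of PTBP2 among others, had 117 scaled CPM in OVCAR3 KO and 573 in OVCAR3 mock cells, against 534 in SKOV3 KO and 516 in SKOV3 mock cells.

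**Figure D5:**
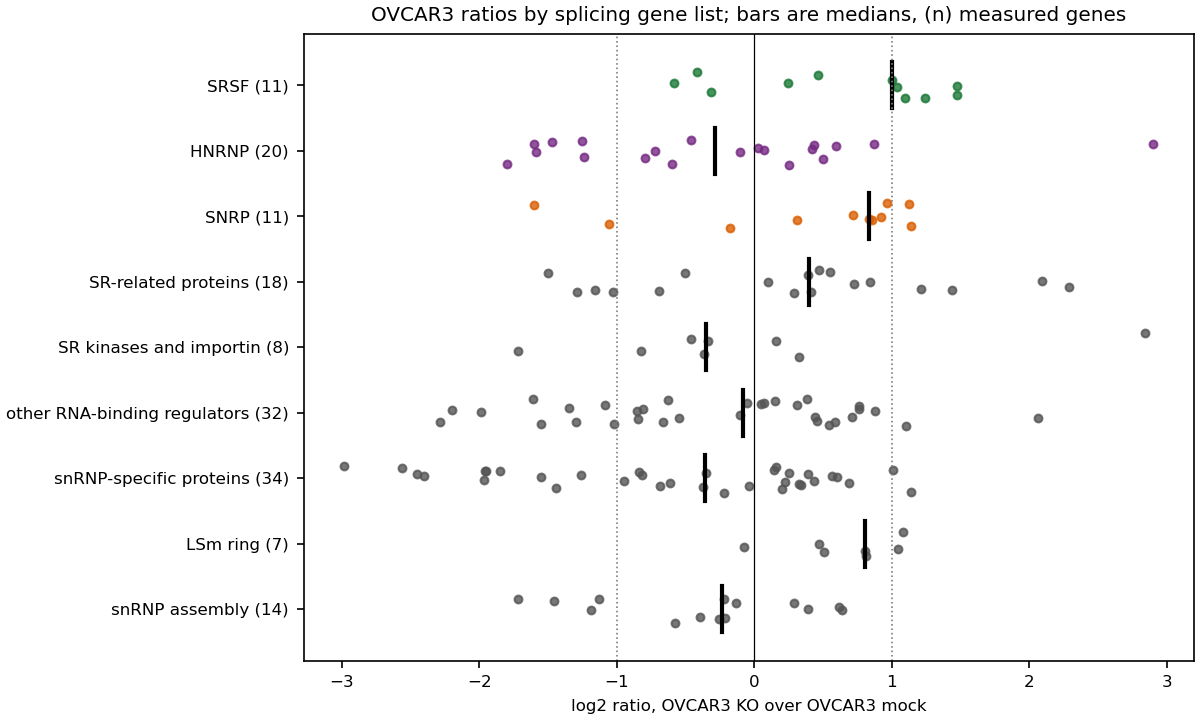
OVCAR3 log2 ratio (KO over mock) of every measured gene in the 3 families and in 6 further splicing lists, 1 point per gene with a small vertical jitter and a bar at the median. SRSF, SNRP and LSm ring genes have medians of 1.00, 0.84 and 0.80, while the medians of the other lists lie between -0.36 and 0.40.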

How the data were processed

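Total RNA was sequenced from 4 libraries, 1 per group, made with a directional kit, per the labels' protocols. The authors deposited unnormalised whole-number read counts, listed by gene symbol (58173 rows, 52402 symbols). TopHat and GRCh38 stand in the submitters' processing notes, while no counting tool, annotation or strand setting is named there.

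Rows of the same symbol were summed. Counts were scaled with TMM factors (edgeR 4.0.16, R 4.3.3) of 1.04 for SKOV3 KO, 1.02 for SKOV3 mock, 0.931 for OVCAR3 KO and 1.01 for OVCAR3 mock, computed on 13670 genes with at least 1 CPM in at least 2 libraries. Within a line, log2 ratios (prior count 2) have 95% Clopper-Pearson intervals, and reads without molecular identifiers make these cover counting error only. Members were described at 2-fold, with no p-value. Across lines, edgeR's quasi-likelihood test had the line as block and Benjamini-Hochberg adjustment over all genes. Its p-values measure only the spread between these libraries, here how far KO over mock differed between the lines. Shares within a family have Wilson intervals, which are narrow at these depths. Scripts were tested on simulated data. GC content, lengths and transcript types came from GENCODE 29, and promoters from RefSeq GRCh38.p14, where 39 of the 42 members measured in OVCAR3 had an entry. The trend on GC content and log length was a spline with 5 degrees of freedom.

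Values in all 4 libraries were given, per family and line, for the 4 largest and the 4 smallest ratios and the highest level per length, and further lists name up to 3 genes per direction past 2-fold. A further list is not reported here. The members and all lists were chosen with earlier results of these data known. Alternatives were other scalings (DESeq2 1.42.0 size factors, library totals, other TMM gene sets), prior counts of 0.5 and 5, filters, folds of 1.5 and 3, the trend, DESeq2 and limma 3.58.1. TMM on all rows, TMM on protein-coding genes and leaving out HNRNPH1, HNRNPL, HNRNPR and HNRNPUL2 were chosen after seeing the data.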

Additional observations from a re-analysis of the deposited data

Results flagged for a closer look

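8 of the 42 members measured in both lines went in opposite directions, with both counting intervals on their own side of 0. The share of all genes that did so was not counted, so the 8 are a description only. Over all 15560 measured genes in OVCAR3, the interval lay above 0 for 6973 and below 0 for 5427. In SKOV3 it lay above 0 for 2376 and below 0 for 2449 of 13524 genes. The OVCAR3 log2 ratio minus the SKOV3 log2 ratio was 1.60 for SRSF5, 1.57 for SRSF1, 1.12 for SNRPF, 0.88 for HNRNPA1, 0.76 for HNRNPA2B1, 0.55 for HNRNPA3, -0.37 for SNRPC and -1.90 for HNRNPUL1. With 1 library per group the difference between the lines was not tested. Of these genes HNRNPUL1 and SNRPC lay below 0 in OVCAR3 and above 0 in SKOV3, and the other 6 were the reverse. With the trend on GC content and length removed, SNRPF, HNRNPA2B1 and HNRNPA3 lay below 0 in OVCAR3 as well, at -0.20, -0.14 and -0.14.

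The pseudogene symbols, which no comparison uses, had more counts in OVCAR3 KO than in OVCAR3 mock cells in each family. Over the 26950 genes with any count in that pair, the median log2 ratio was also above 0, at 0.51. Among measured genes, 22.5% of all and 13% of protein-coding ones were 2-fold higher in OVCAR3 KO. A background for pseudogene rows alone was not computed. The 57 SNRP pseudogenes had 75 counts in OVCAR3 KO and 8 in OVCAR3 mock cells, a log2 ratio of 3.39 after scaling. The 5 SRSF pseudogenes had 36 and 7 counts, a log2 ratio of 2.52, and the 124 HNRNP pseudogenes had 1096 and 734 counts, a log2 ratio of 0.74. In SKOV3 the SNRP pseudogenes had 17 counts in KO and 14 in mock cells, the SRSF pseudogenes 6 and 7, and the HNRNP pseudogenes 609 and 1117. These SKOV3 counts are unscaled, from libraries of 15145483 counts in KO and 22057693 in mock cells. The SRSF and SNRP pseudogenes hold few counts, and such copies can take reads from their parent genes.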

How the results depend on the processing

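No member at 2-fold or more changed sign under any alternative tried. Of the smaller OVCAR3 ratios, 9 changed sign with the GC and length trend removed (among them SNRPF at -0.20, SNRPA1 at -0.18 and SRSF11 at -0.11), and the median of the 42 members was then -0.21 against 0.28. Such changes numbered 4 with TMM on all rows, 2 with DESeq2 size factors and 2 with library totals. SKOV3 counts and medians kept their value within the spread, except that with no filter 1 SKOV3 member, SRSF12 at 2 counts against 0, passed 2-fold. In OVCAR3 the SRSF, HNRNP and SNRP medians were 0.79, -0.49 and 0.63 with DESeq2 size factors and 0.71, -0.57 and 0.55 with TMM on all rows, and 4 and 3 members were 2-fold higher, shifts that a common factor gives by construction. HNRNPF joined the members 2-fold lower under both of these settings, and HNRNPUL2 with TMM on all rows. Library totals gave medians of 0.89 for SRSF and 0.72 for SNRP, and TMM on protein-coding genes 1.08 for SRSF. With the GC and length trend removed the medians were 0.39, -0.42 and 0.031, with 4 members higher, and the cause was not tested. The HNRNP median was -0.11 with a CPM of at least 5 or without HNRNPH1, HNRNPL, HNRNPR and HNRNPUL2, and the SRSF median 0.74 with no filter, which adds SRSF12. A fold of 1.5 gave 16 members higher, and a fold of 3 gave 1 higher and 3 lower. At 1.5-fold HNRNPF at -0.79, HNRNPUL2 at -0.72 and HNRNPK at -0.60 joined the members lower at 2-fold. The share of all genes past these folds was not counted, nor was the share past 2-fold under other scalings or without the trend. The median differences between OVCAR3 and SKOV3 ratios, 0.87 for SRSF, -0.24 for HNRNP and 0.82 for SNRP, became 0.68, -0.44 and 0.62 with DESeq2 size factors and 0.73, -0.38 and 0.68 with library totals, and 0.26 for SRSF and 0.043 for SNRP without the trend. Across both lines 1 gene, no member, was called with no filter, against 0 otherwise. No paired analysis was possible because every group holds only replicate number 1, other than the test across both lines, which has the line as its block. Leaving out 1 library there leaves no residual degree of freedom, so it was not run. Dropping the line block changed no call. HNRNPL, HNRNPR and SRSF12 rested on few counts, and the part of depth, and for HNRNPL and HNRNPR of a symbol in several rows, was not tested.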
